A study of Homo sapiens with 8 samples.

Results

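Elastic fibres are built on microfibrils, and both are part of the scar that hepatic stellate cells (HSCs) lay down in a fibrotic liver. Here 10 genes of this assembly were followed: the fibrillins FBN1 and FBN2, elastin (ELN), the fibulins FBLN1, FBLN5, EFEMP1 (fibulin-3) and EFEMP2 (fibulin-4), the latent TGF-beta binding proteins LTBP1 and LTBP2, and the microfibril-associated protein MFAP5. They were listed by gene symbol, although earlier results of these data were known, and all 10 are among the 25369 genes of the deposited table. The RNA-seq libraries came from LX-2, an immortalized human HSC line, so every library has the same genetic background and 1 line stands for the cell type. The cells were grown on hydrogels of 2 kPa (soft) or 40 kPa (stiff), and were collected after 2 or 4 days. Each of the 4 conditions had 2 libraries, named here replicate 1 and replicate 2, and the labels name no drug or genetic change in any of them. With 2 libraries per condition, the p-values below measure the spread between these libraries.

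Fibrillins polymerize into the microfibrils that serve as the scaffold on which elastin is deposited. Fibulins bind elastin and help to bring it to the scaffold and to the crosslinking enzymes, and LTBPs bind fibrillin, with LTBP1 also tethering latent TGF-beta, the main profibrotic cytokine of the liver, in the matrix. HSCs are a main source of matrix in the injured liver, where elastic fibres accumulate in older scars.

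On the GRCh37 build, FBN1 lies at chr15:48700510-48937918 on the minus strand and FBN2 at chr5:127593601-127994878 on the minus strand. ELN lies at chr7:73442119-73484237 on the plus strand and MFAP5 at chr12:8789942-8815484 on the minus strand. The fibulins lie at chr22:45898118-45997015 (FBLN1, plus strand), chr14:92335755-92414331 (FBLN5, minus strand), chr2:56093102-56151274 (EFEMP1, minus strand) and chr11:65633912-65641063 (EFEMP2, minus strand). LTBP1 lies at chr2:33172020-33624576 on the plus strand and LTBP2 at chr14:74964886-75079081 on the minus strand. Exons of FBN2 overlap SLC27A6, and exons of EFEMP2 overlap MUS81, each on the opposite strand. The strand setting of the counting was not given in the sources used here, so reads in those overlaps cannot be assigned to one gene with certainty.

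The study asked how matrix stiffness acts on chromatin and transcription and considered AP-1 factors, so the promoters of the genes were read for the AP-1 motif. A promoter here is the 250 bases before the RefSeq transcription start, from a RefSeq table of GRCh38.p14 whose sequences were placed on GRCh37 by exact match; 7 of the 10 genes had an entry. Those printed here are the stretches free of annotated exons for a gene that rose with time (FBLN1), a gene that fell (LTBP2) and both fibrillins, which did not pass the test in any comparison. They come from chr22:45898513-45898711 (plus strand), chr14:75079082-75079190, chr15:48937168-48937417 and chr5:127873939-127874188 (minus strand). Capitals mark GGAATG, the TEAD motif, and GGGCGG, the GC box, on either strand.
FBLN1: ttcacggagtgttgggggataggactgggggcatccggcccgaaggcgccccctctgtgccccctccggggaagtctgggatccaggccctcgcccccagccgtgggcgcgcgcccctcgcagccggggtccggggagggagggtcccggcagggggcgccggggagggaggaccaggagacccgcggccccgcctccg
LTBP2: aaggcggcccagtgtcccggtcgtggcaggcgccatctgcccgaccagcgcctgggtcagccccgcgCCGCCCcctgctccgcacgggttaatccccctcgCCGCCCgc
FBN1: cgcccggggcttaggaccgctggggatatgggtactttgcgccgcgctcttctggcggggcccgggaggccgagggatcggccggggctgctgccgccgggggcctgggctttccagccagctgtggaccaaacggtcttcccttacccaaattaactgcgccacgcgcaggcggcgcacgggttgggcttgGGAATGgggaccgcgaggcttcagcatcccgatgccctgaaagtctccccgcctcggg
FBN2: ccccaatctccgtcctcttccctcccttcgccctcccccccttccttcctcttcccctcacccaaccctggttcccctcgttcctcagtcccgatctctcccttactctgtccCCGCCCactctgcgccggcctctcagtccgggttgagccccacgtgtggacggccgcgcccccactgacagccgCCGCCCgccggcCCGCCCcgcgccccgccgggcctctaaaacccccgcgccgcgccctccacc
The AP-1 motif TGANTCA was found in 0 of the 7 promoters, against 6.57% of all 35116 RefSeq promoters. The TEAD motif was found in 1 of them, that of FBN1, against 11.9% of all promoters, and the GC box in 5, against 42.6%. The TATA box TATAAA was found in 1, against 10.7%. The GC content of the 7 windows lay between 47.6% and 81.6%, with a median of 58% over all promoters. Each motif was searched on both strands of the full 250 bases and the motifs do not contain one another. The GC boxes at -36 in FBLN1 and at -138 in LTBP2 lie in annotated exon bases that are not printed. The windows of FBLN1, FBLN5, EFEMP2, LTBP1, FBN1 and FBN2 lie inside the gene spans given above, and that of LTBP2 lies partly inside. None of these RefSeq starts is therefore the outermost annotated one, and the outermost starts were not searched. A match describes the letters of these windows and does not show that a factor binds there. The paper reported its AP-1 motif enrichment in accessible chromatin regions, and most of its differential peaks were intergenic or intronic. The promoter windows searched here therefore do not bear on that result.

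The libraries held between 19955975 and 27263935 counts. Levels are given as deposited FPKM, reads corrected for gene length, which the authors scaled between libraries by size factors, so that genes can be compared with each other. Fold changes come from the deposited counts, tested with edgeR's quasi-likelihood F test in one fit of all 8 libraries over the 14570 genes that passed its filter on low counts, and a gene was called at a Benjamini-Hochberg adjusted p under 0.05. The replicates on the stiff matrix at 4 days stood farthest apart. Their counts gave a chi-square of 112 per degree of freedom, against 3.38 to 18.9 in the other conditions. The stellate cell identity of the line was checked on 13 markers, of which 8 reached 1 FPKM in every library, whereas DES, LRAT and PDGFRA were near 0. The summed FPKM of these markers lay between 1482 and 1602 on the soft and 1785 and 1918 on the stiff matrix at 2 days, and between 2527 and 2880 on the soft and 2593 and 3890 on the stiff matrix at 4 days. Most of the sum was VIM, at 921 to 2938 FPKM. The markers did not move together: VIM, THY1, ACTA2 and SPARC rose with time on both matrices, COL6A1 fell on both, and COL1A1 had log2 fold changes of -0.47 and -0.57 (edgeR adjusted p = 0.0988 and 0.0574). Their part in the time values was not tested. Markers of hepatocytes summed to 1.23 to 2.99 FPKM and those of endothelial cells to 0.101 to 0.205. The epithelial list summed to 5.80 to 11.4 FPKM, most of it KRT7, and the leukocyte list to 48.2 to 66.7 FPKM, most of it CD68, with PTPRC at no more than 0.381 and CD163 at 0 in every library. In bulk RNA, fewer cells of a type and less RNA per cell cannot be told apart.

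The 10 genes spanned a wide range of levels, and elastin itself was not detected above the counting floor. EFEMP2 was the most abundant, with a mean of 62.5 FPKM over the 8 libraries. It was followed by FBN1 (11.2 FPKM), EFEMP1 (9.10 FPKM), FBN2 (5.30 FPKM), LTBP1 (2.77 FPKM), FBLN1 (2.52 FPKM), LTBP2 (0.829 FPKM) and FBLN5 (0.576 FPKM). Among the 14570 genes tested, the mean FPKM of EFEMP2 stood at the 91.2 percentile, FBN1 at 60.5 and FBLN5 at 13.8. Neighbours in this order were not always apart. EFEMP2 exceeded FBN1, FBN2 exceeded LTBP1, and FBLN1 exceeded LTBP2 in all 8 libraries. FBN1 exceeded EFEMP1, LTBP1 exceeded FBLN1, and LTBP2 exceeded FBLN5 in 5 of 8 libraries, that is, in 4 of 4 at 2 days and in 1 of 4 at 4 days. EFEMP1 exceeded FBN2 in 6 of 8. ELN, the core protein of the fibre, had 1 count in each soft library at 2 days and 0 in the other 6. MFAP5, which decorates microfibrils, had 1 count in replicate 1 on the stiff matrix at 2 days, 2 and 1 counts on the stiff matrix at 4 days, and 0 elsewhere. A limit of 3 counts per library corresponds to 0.106 to 0.173 CPM (counts scaled to a common library size, with TMM factors), so neither gene was detectable at this depth. Both genes failed the filter on low counts, which left 8 of the 10 genes tested.

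**Figure D1:**
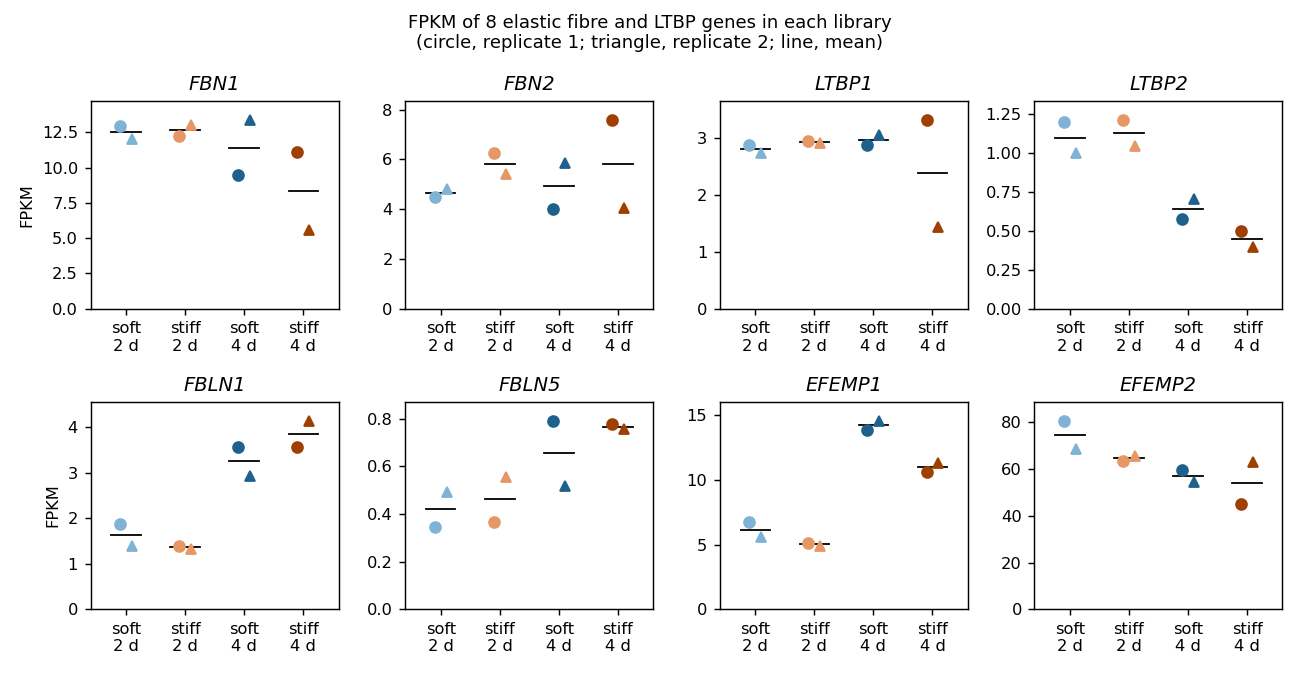
FPKM (y axis, starting at 0) of the 8 tested genes in each of the 8 libraries, by matrix and day (x axis). Circles are replicate 1, triangles replicate 2 and lines the mean of each condition. FBLN1 and EFEMP1 are higher and LTBP2 lower in all 4 libraries of 4 days than in all 4 of 2 days, and the replicates of FBN1, FBN2 and LTBP1 on the stiff matrix at 4 days are far apart.

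The fibulins FBLN1 and EFEMP1 rose from 2 to 4 days on both matrices, and LTBP2 fell on both. On each matrix 3 of the 8 tested genes were called, 2 higher and 1 lower. The background was 27.4% of all genes tested on the soft matrix (14.1% higher, 13.3% lower) and 27.6% on the stiff matrix (14% higher, 13.7% lower). The share among the 8 genes was therefore close to that of the whole transcriptome. The same 3 genes were called on both matrices in the same direction, as were 20.7% of all genes tested. A fit of the 4 stiff libraries alone called 0 of the 8 genes, with edgeR adjusted p of 0.0513 for FBLN1, 0.0543 for EFEMP1 and 0.0617 for LTBP2, and it called 0 genes in all. The median log2 fold change of the 8 genes was 0.10 on the soft and -0.12 on the stiff matrix, against 0.02 and 0.03 for all genes. Without scaling factors the median of all genes on the stiff matrix was -0.10, and 40.3% (soft) and 36.1% (stiff) of called genes were higher in place of 51.5% and 50.5%.

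FBLN1, a fibulin of basement membranes and elastic fibres, had 1.87 and 1.40 FPKM on the soft matrix and 1.39 and 1.33 FPKM on the stiff matrix at 2 days. After 4 days the values were 3.55 and 2.94 FPKM on the soft and 3.55 and 4.14 FPKM on the stiff matrix. Every library of 4 days was above every library of 2 days. The mean rose from 7.96 ± 1.64 to 16.0 ± 1.98 CPM (SD, n = 2) on the soft matrix, a log2 fold change of 1.0 (SE 0.195, edgeR adjusted p = 0.00987). On the stiff matrix it rose from 6.60 ± 0.219 to 18.9 ± 2.12 CPM (SD, n = 2), a log2 fold change of 1.51 (SE 0.199, edgeR adjusted p = 0.00292). On the soft matrix the call was lost without replicate 1 or 2 of 2 days or replicate 1 of 4 days, with log2 fold changes of 1.23, 0.81 and 0.84 and edgeR adjusted p of 0.0516, 0.075 and 0.0811.

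EFEMP1, an elastic fibre-associated fibulin of connective tissue, had 6.73 and 5.62 FPKM on the soft matrix and 5.16 and 4.89 FPKM on the stiff matrix at 2 days. At 4 days the soft libraries had 13.8 and 14.6 FPKM and the stiff libraries 10.6 and 11.3 FPKM. The days did not overlap on either matrix. The log2 fold change with time was 1.22 on the soft matrix (SE 0.146, edgeR adjusted p = 0.00232) and 1.14 on the stiff matrix (SE 0.147, edgeR adjusted p = 0.00281). The soft call held under all 20 alternatives tried. The stiff call was lost without replicate 2 of the stiff matrix at 2 days, where the log2 fold change was 1.1 and the edgeR adjusted p 0.0505.

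LTBP2, an LTBP that binds fibrillin and does not bind latent TGF-beta, had 1.2 and 0.998 FPKM on the soft matrix and 1.21 and 1.04 FPKM on the stiff matrix at 2 days. The values of 4 days were 0.575 and 0.702 FPKM on the soft and 0.502 and 0.399 FPKM on the stiff matrix. All 4 libraries of 4 days were below all 4 of 2 days. On the log2 scale it fell by 0.77 on the soft matrix (SE 0.206, edgeR adjusted p = 0.0295) and by 1.31 on the stiff matrix (SE 0.215, edgeR adjusted p = 0.0058). The soft call was the less stable. It was lost when any library of 2 days, or either soft library of 4 days, was left out, with edgeR adjusted p from 0.0628 to 0.212. The stiff call was lost without replicate 1 of the stiff matrix at 2 days (edgeR adjusted p = 0.0544).

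The other tested fibulins were not called with time. FBLN5, which binds elastin and integrins and is needed for elastic fibre assembly, had 0.347 and 0.492 FPKM on the soft matrix and 0.366 and 0.557 FPKM on the stiff matrix at 2 days. At 4 days its values were 0.792 and 0.520 FPKM on the soft and 0.778 and 0.755 FPKM on the stiff matrix. The days did not overlap on either matrix, at 23 to 45 counts per library. Its log2 fold changes were 0.66 (SE 0.351, 95% CI -0.153 to 1.47, edgeR adjusted p = 0.196) on the soft and 0.74 (SE 0.353, 95% CI -0.0733 to 1.56, edgeR adjusted p = 0.151) on the stiff matrix. In all, the libraries of the days did not overlap in 6 of the 8 genes on the soft matrix and in 5 on the stiff matrix, against 75.3% and 62.7% of all genes tested.

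EFEMP2, the fibulin needed for elastin crosslinking through lysyl oxidase, had 80.7 and 68.4 FPKM on the soft matrix and 63.4 and 65.5 FPKM on the stiff matrix at 2 days. At 4 days it had 59.7 and 54.4 FPKM on the soft and 44.9 and 62.8 FPKM on the stiff matrix. Both soft libraries of 4 days lay below both of 2 days. The log2 fold changes were -0.37 (SE 0.181, edgeR adjusted p = 0.166) and -0.25 (SE 0.182, edgeR adjusted p = 0.341). The soft value was called in a fit of the soft libraries alone (-0.38, edgeR adjusted p = 0.0153), with 7261 genes called in all. It was -0.38 without replicate 1 and -0.39 without replicate 2 of the stiff matrix at 4 days. The stiff value was -0.52 without that replicate 2.

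**Figure D2:**
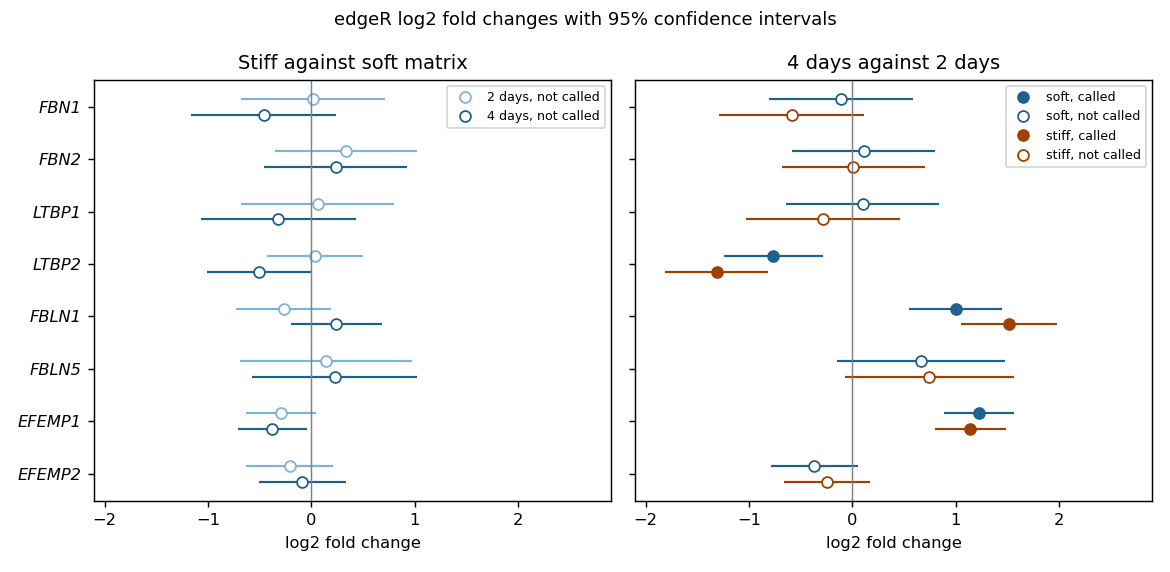
edgeR log2 fold changes (x axis) of the 8 tested genes with 95% confidence intervals, for the stiff against the soft matrix on each day (left) and for 4 against 2 days on each matrix (right). Filled points were called at an adjusted p under 0.05: EFEMP1 and FBLN1 above 0 and LTBP2 below 0 with time on both matrices, and none for stiffness.

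None of the 8 tested genes was called between the stiff and the soft matrix, on either day or over both. edgeR called 0 of the 8 at 2 days, when 0% of all genes were called. It called 0 at 4 days, against 0.247% of all genes, and 0 in the average over days, against 0.426%. DESeq2 and limma on FPKM also called 0 of them in each of these comparisons. At an unadjusted p under 0.05 there were 0 of them at 2 days (2.82% of all genes), 2 at 4 days (6.93%), EFEMP1 and LTBP2, and 1 in the average (7.7%), EFEMP1. The interaction of stiffness and day was called for 0 of the 8 genes, by all 3 tools, with 0 at an unadjusted p under 0.05, against 0% called and 1.95% at an unadjusted p under 0.05 among all genes. The medians of the 8 log2 fold changes were 0.03 at 2 days and -0.20 at 4 days, against 0.01 and 0.02 for all genes. At 2 days the libraries of the matrices did not overlap in 5 of the 8 genes, against 48.2% of all genes, and at 4 days in 3, against 25.7%.

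EFEMP1 was lower in both stiff libraries than in both soft libraries on each day. Its log2 fold change was -0.30 at 2 days (SE 0.146, edgeR adjusted p = 1) and -0.38 at 4 days (SE 0.144, edgeR adjusted p = 0.625). Averaged over days it was -0.34 (SE 0.103, 95% CI -0.576 to -0.101, edgeR adjusted p = 0.367). It was below 0 under every alternative tried. The averaged value was -0.31 without replicate 1 and -0.36 without replicate 2 of the stiff matrix at 4 days. It was called in those 2 of 19 alternatives, each of which left 1 library in that condition, and in no other.

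The stiffness values of the fibrillins at 4 days rested on single libraries. FBN1, the main fibrillin of adult tissue, had 12.9 and 12.1 FPKM on the soft and 12.3 and 13.01 FPKM on the stiff matrix at 2 days. By 4 days these were 9.46 and 13.4 FPKM on the soft and 11.1 and 5.59 FPKM on the stiff matrix. The low value is replicate 2 of the stiff matrix. The log2 fold change between matrices was 0.01 at 2 days (95% CI -0.682 to 0.711), with its sign turned without scaling factors and with length offsets, and -0.46 at 4 days (95% CI -1.16 to 0.239, edgeR adjusted p = 0.852). Without replicate 1 of the stiff matrix at 4 days, the second of these was -1.02, and without replicate 2 it was -0.04. Without replicate 2 of the soft matrix at 4 days it was -0.17. With time, FBN1 had -0.11 on the soft (edgeR adjusted p = 0.812) and -0.58 on the stiff matrix (edgeR adjusted p = 0.184). The second of these was -1.16 without replicate 1 of the stiff matrix at 4 days.

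FBN2, the fibrillin most associated with development, had 4.47 and 4.80 FPKM on the soft and 6.26 and 5.41 FPKM on the stiff matrix at 2 days. At 4 days it had 3.99 and 5.85 FPKM on the soft and 7.60 and 4.04 FPKM on the stiff matrix. At 2 days both stiff libraries were above both soft libraries, with a log2 fold change of 0.33 (SE 0.298, 95% CI -0.357 to 1.02, edgeR adjusted p = 1). A fit of the 2-day libraries alone called it (edgeR adjusted p = 0.0273), with 667 genes called in all. At 4 days the value was 0.23 (95% CI -0.455 to 0.925, edgeR adjusted p = 0.896), and it was 0.63 without replicate 2 of the stiff matrix and -0.28 without replicate 1. With time, FBN2 had 0.11 on the soft matrix (edgeR adjusted p = 0.814). On the stiff matrix it had 0.01 (edgeR adjusted p = 0.985), a sign that turned under most alternatives, and -0.51 without replicate 1 of 4 days. The ratio of FBN2 to FBN1 FPKM was 0.345 and 0.398 on the soft and 0.510 and 0.416 on the stiff matrix at 2 days. At 4 days it was 0.422 and 0.436 on the soft and 0.684 and 0.722 on the stiff matrix, so the stiff libraries were above the soft libraries on each day. This ratio was chosen after its values were seen and was not tested.

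LTBP1, which tethers latent TGF-beta to fibrillin and fibronectin, had 2.88 and 2.74 FPKM on the soft and 2.95 and 2.92 FPKM on the stiff matrix at 2 days. LTBP1 then had 2.88 and 3.06 FPKM on the soft and 3.33 and 1.43 FPKM on the stiff matrix. Apart from the last library, its values lay within a narrow band. The log2 fold change between matrices was 0.06 at 2 days (95% CI -0.677 to 0.803), a sign that turned without scaling factors, and -0.32 at 4 days (95% CI -1.07 to 0.429, edgeR adjusted p = 0.879). Without replicate 1 of the stiff matrix at 4 days it was -1.04, and without replicate 2 it was 0.16. With time, LTBP1 had 0.10 on the soft (edgeR adjusted p = 0.84) and -0.29 on the stiff matrix (edgeR adjusted p = 0.54). The second of these was -1.02 without that replicate 1.

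For LTBP2 the log2 fold change between matrices was 0.04 at 2 days (95% CI -0.426 to 0.499) and -0.51 at 4 days (SE 0.219, edgeR adjusted p = 0.72), with a 95% CI from -1.01 to just below 0. Without scaling factors the first of these was -0.03, and with length offsets it was -0.05. For FBLN1 it was -0.27 at 2 days (95% CI -0.73 to 0.192) and 0.24 at 4 days (95% CI -0.201 to 0.685). FBLN5 had 0.14 (95% CI -0.694 to 0.97) and 0.22 (95% CI -0.573 to 1.02), and EFEMP2 had -0.21 (95% CI -0.629 to 0.209) and -0.09 (95% CI -0.508 to 0.332). Apart from that of LTBP2 at 4 days, the intervals in this group include changes of either sign.

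**Figure D3:**
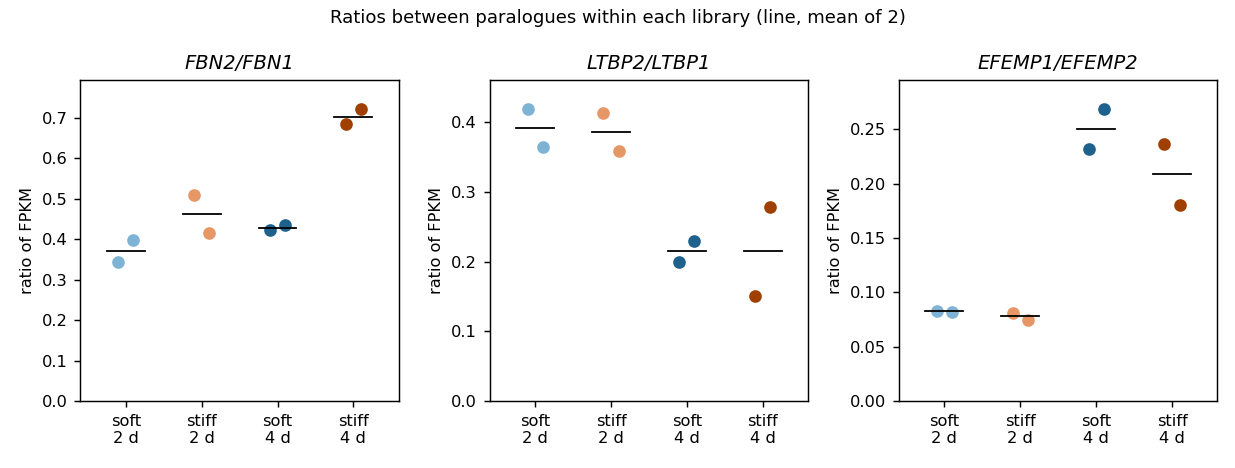
Ratio of FPKM (y axis, starting at 0) between paralogues in each library, by matrix and day (x axis), with lines at the mean of 2 libraries. FBN2/FBN1 is between 0.345 and 0.436 in the soft libraries and between 0.416 and 0.722 in the stiff libraries. LTBP2/LTBP1 is lower, and EFEMP1/EFEMP2 higher, in all 4 libraries of 4 days than in all 4 of 2 days.

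Within the LTBP pair, the LTBP2 to LTBP1 ratio of FPKM lay between 0.358 and 0.418 at 2 days and between 0.151 and 0.278 at 4 days. Within the EFEMP pair, the EFEMP1 to EFEMP2 ratio lay between 0.0746 and 0.0834 at 2 days and between 0.180 and 0.268 at 4 days. The days did not overlap in either ratio. These ratios were not tested and reuse the values of LTBP2 and EFEMP1 given above, so they add no separate result. Both ratios are formed from FPKM of one library, so a scaling factor common to the library cancels, whereas a trend with gene length need not.

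The replicate difference of the stiff matrix at 4 days moved with gene length. The median log2 difference of replicate 2 from replicate 1 was 0.62 among genes under 2000 bp (the length that the FPKM imply) and -0.57 among genes over 8000 bp. On the soft matrix at 4 days the trend ran the other way, from -0.21 under 2000 bp to 0.28 over 8000 bp. At 2 days the medians of the length classes lay between -0.0728 and 0.0707. FBN1 (11695 bp), FBN2 (10724 bp) and LTBP1 (6348 bp) differed by -0.98, -0.90 and -1.2 in that condition, and LTBP2 (8554 bp) by -0.32. The shorter genes FBLN1 (4857 bp), EFEMP1 (3094 bp), FBLN5 (2633 bp) and EFEMP2 (2068 bp) differed by 0.23, 0.10, -0.03 and 0.49. FBLN1 went against its own length class (4000 to 6000 bp), whose median was -0.32. With offsets fitted per library to a spline of gene length, an alternative added after the data were seen, the same 3 genes were called with time on each matrix and 0 of the 8 for stiffness. Medians of the time values also differed between length classes. On the stiff matrix the median log2 fold change of 4 against 2 days was 0.183 under 2000 bp and -0.301 over 8000 bp. On the soft matrix it was -0.0355 and -0.109. FBN1, FBN2 and LTBP2 belong to the longest class. The part of length in these and the other values was not tested.

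**Figure D4:**
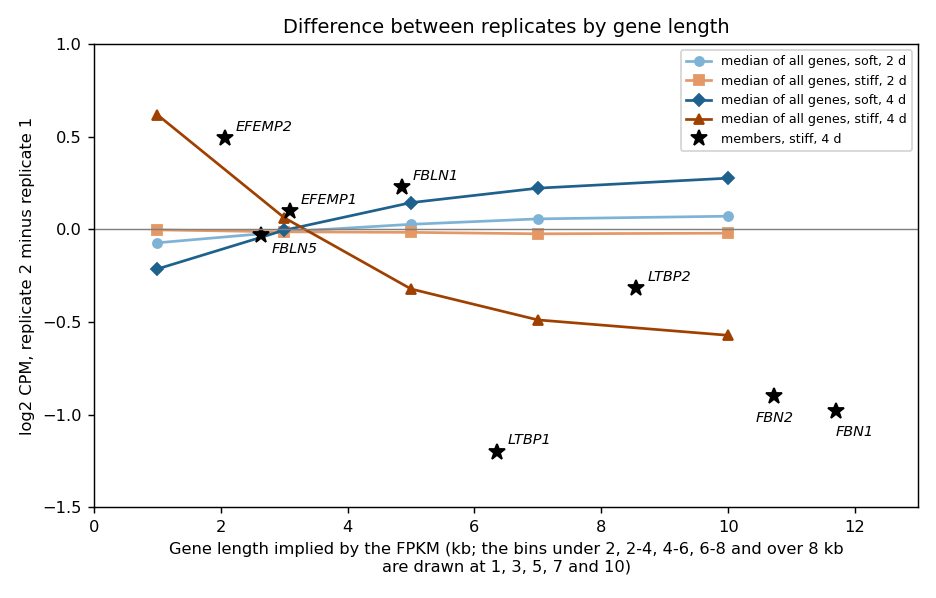
Difference of replicate 2 from replicate 1 (y axis) in log2 CPM against gene length (x axis, kb). Lines join medians over length classes of all tested genes in each condition, and stars are the 8 genes on the stiff matrix at 4 days. On the stiff matrix at 4 days the medians go from 0.62 under 2000 bp to -0.57 over 8000 bp, and FBN1, FBN2 and LTBP1 lie near -1.

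The level pattern of EFEMP1 over the 8 libraries, the widest among the genes at 1.51 log2 CPM between the highest and lowest condition mean, was closest to that of MOXD1, SH3BGRL and LAPTM5 out of 12043 genes compared. The root mean square difference from EFEMP1, after centring each gene, was 0.0897, 0.117 and 0.119 log2 CPM, against a median of 0.643 over the genes compared. MOXD1, a copper-dependent monooxygenase-like gene, had 23.0 and 22.6 CPM on the soft and 18.1 and 17.1 CPM on the stiff matrix at 2 days. MOXD1 then had 47.9 and 50.1 CPM on the soft and 36.2 and 36.5 CPM on the stiff matrix.

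Of 63 further genes of elastic fibre structure, crosslinking, latent TGF-beta and matrix breakdown, 51 were tested. At 2 days edgeR called 0 of the 51 between matrices, and at 4 days 3, each lower on the stiff matrix, against 0% and 0.247% of all genes. At an unadjusted p under 0.05 there were 6 of the 51 at 2 days, 17 at 4 days and 16 in the average, against 2.82%, 6.93% and 7.7% of all genes. With time, 9 were higher and 5 lower on the soft matrix, and 7 were higher and 10 lower on the stiff matrix, against 27.4% and 27.6% of all genes called. Of the 14 soft calls, 12 were lost without replicate 1 of the soft matrix at 2 days, and of the 17 stiff calls, 14 were lost without replicate 2 of the stiff matrix at 2 days. The fit of the stiff libraries alone lost all 17.

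Among 10 tested structural genes, 3 fell on the soft and 4 on the stiff matrix, against 13.3% and 13.7% of all genes tested. The others were not called. Both other LTBPs were among those that fell. LTBP3, which binds latent TGF-beta, fell by 0.73 on the soft and 0.78 on the stiff matrix on the log2 scale (edgeR adjusted p = 0.0263 and 0.0212). LTBP4, which binds FBLN5 and latent TGF-beta, fell by 1.02 and 1.17 (edgeR adjusted p = 0.0076 and 0.00524). FBLN2 fell by 0.96 on the stiff matrix (edgeR adjusted p = 0.014) and had -0.54 on the soft matrix (edgeR adjusted p = 0.0855). HMCN1, a large fibulin-family matrix protein, fell on both matrices, with log2 fold changes of -1.38 and -3.82 (edgeR adjusted p = 0.025 and 0.00253), at no more than 0.146 FPKM in any library. The soft call of HMCN1 held under 10 of 17 alternatives. FBN3 had 0 FPKM in every library, and MFAP2, a partner of fibrillin, had at most 0.153 FPKM.

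Among 16 tested crosslinking and assembly genes, 2 rose and 1 fell on the soft matrix, and 2 rose and 3 fell on the stiff matrix. Of all genes tested, 27.4% (soft) and 27.6% (stiff) were called in either direction. LOX, the lysyl oxidase that crosslinks elastin and collagen, rose by 0.58 and 0.78 on the log2 scale (edgeR adjusted p = 0.0387 and 0.0145). The soft call of LOX held under 10 of 20 alternatives. ADAMTSL5, a fibrillin-associated protein, rose by 1.04 and 1.5 (edgeR adjusted p = 0.0121 and 0.00369). ADAMTSL4, which also binds fibrillin, fell on both matrices by 0.69 and 0.52 (edgeR adjusted p = 0.0153 and 0.0398). The stiff call of ADAMTSL4 held under 10 of 20 alternatives. FURIN, a proprotein convertase, fell on the stiff matrix by 0.72 and had -0.28 on the soft matrix (edgeR adjusted p = 0.0126 and 0.2). HSPG2, the basement membrane proteoglycan perlecan, fell on the stiff matrix by 1.87 and had -1.71 on the soft matrix (edgeR adjusted p = 0.0436 and 0.0566). The stiff call of HSPG2 held under 10 of 20 alternatives, and its stiff libraries of 4 days had 2.59 and 0.582 FPKM.

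Among 13 tested genes of latent TGF-beta and its integrins, 4 rose and 1 fell on the soft and 3 rose and 1 fell on the stiff matrix. The shares of all genes called in either direction were again 27.4% and 27.6%. TGFB2, a TGF-beta ligand, rose by 1.86 and 2.23 (edgeR adjusted p = 0.00164 and 0.00129). TGFBR1, a TGF-beta receptor, rose by 1.01 and 0.65, and the integrin subunit ITGB5 fell by 0.42 and 0.64. The stiff call of TGFBR1 held under 13 of 20 alternatives and the soft call of ITGB5 under 11 of 20. THBS1, an activator of latent TGF-beta, rose by 1.16 on the soft matrix and had 0.695 on the stiff matrix (edgeR adjusted p = 0.0144 and 0.0747). The integrin subunit ITGB8 rose by 1.83 on the soft matrix and had 1.36 on the stiff matrix (edgeR adjusted p = 0.0475 and 0.126). Its call held under 8 of 17 alternatives, at no more than 0.342 FPKM. LRRC32, which anchors latent TGF-beta on cells, rose by 1.41 on the stiff matrix and had 0.81 on the soft matrix (edgeR adjusted p = 0.0138 and 0.0669). LRRC32 had no more than 0.467 FPKM.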

How the data were processed

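RNA-seq was made from LX-2 cells on a soft (2 kPa) or stiff (40 kPa) hydrogel after 2 or 4 days, with 2 libraries in each of 4 conditions. Samples were grouped, and replicates numbered, by their labels. The authors trimmed reads with Trim Galore, mapped them to hg19 with STAR 2.7.1a (per the submitters' processing notes) and deposited counts per gene from htseq-count, not normalized. The gene annotation and strand setting are not given in the sources used here. A second table deposited by the authors holds FPKM. The quotient of deposited counts and FPKM gave whole gene lengths in 20029 of 20029 genes (tolerance 0.01), and in 12867 genes with at least 10 counts in every library the scale between libraries differed from median-of-ratios size factors by at most 6.4e-13%.

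Of 25369 genes, 14570 passed filterByExpr by condition. Counts were scaled by TMM (factors 0.8704 to 1.08) and fitted in edgeR 4.0.16 (R 4.3.3) with 4 conditions, so that groups of 2 shared one estimate of the spread (residual degrees of freedom 4, prior degrees of freedom 3.86, common dispersion 0.0281). The depth, 19955975 to 27263935 counts, sets a floor of 3 counts per library, which covers counting error only. Standard errors (SE) were taken from the fold change and its F statistic, and intervals are at 95%. The tests were checked on simulated data with 200 changed genes. The study's tool was DESeq2, run here (version 1.42.0) as an alternative, beside limma 3.58.1 on log2(FPKM + 1) and log2(FPKM + 0.1), which understates the change of low genes, other scalings and filters, separate fits, a replicate block and leaving out each library.

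The genes and lists were chosen with earlier results of these data known. All 10 genes are named, and other genes where a sentence needs them, from a list of 63 pathway genes (by name if called in any comparison, or as a partner) or as the 3 nearest level patterns to the gene with the widest range of condition means. Coordinates are from GENCODE v44lift37 on GRCh37, and promoter sequences are RefSeq's. No protein sequence was used here.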

Additional observations from a re-analysis of the deposited data

Results flagged for a closer look

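FBLN1 was lower in both stiff than in both soft libraries at 2 days (6.76 and 6.45 against 9.12 and 6.80 CPM). It was higher in both at 4 days (17.4 and 20.4 against 17.4 and 14.6 CPM). On each day the nearest pair differed by little. The matrices did not overlap in 48.2% of all genes at 2 days and in 25.7% at 4 days. FBLN1 is given here because the libraries moved in opposite directions on the days. The interaction of stiffness and day was 0.51 on the log2 scale (SE 0.276, 95% CI -0.128 to 1.15), with an edgeR p of 0.102 and an adjusted p of 1, so the interaction test was not passed. Under 19 alternatives it lay between 0.28 and 0.71 and was never called. No group had 4 or more samples, so single libraries were not tested for standing apart.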

How the results depend on the processing

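Over 20 alternatives for each day or matrix, and 19 for the average and the change of effect, EFEMP1 was called with time 20 times on the soft and 18 times on the stiff matrix, FBLN1 17 and 19 times, and LTBP2 12 and 18 times, always in the same direction. Separate fits gave 1 called gene for stiffness at 2 days (FBN2) and 0 with time on the stiff matrix, and on the soft matrix 4, with EFEMP2 added, of 7261 genes called in all. Other calls absent from the reported fit came only when a library was left out, which left 1 in its condition. They were of FBN1, FBN2 and LTBP1 (stiffness at 4 days, the average, time on the stiff matrix), FBN1 and LTBP1 (change of effect), EFEMP1 (the average) and EFEMP2 (time on each matrix). Leaving out each library in turn, the number of called genes ranged from 0 to 2 for stiffness at 4 days, 0 to 3 in the average, 1 to 4 with time on the soft matrix, 2 to 6 on the stiff matrix and 0 to 2 for the change of effect. The highest counts for stiffness at 4 days, for the average, on the stiff matrix and for the change of effect were without replicate 1 of the stiff matrix at 4 days. Over all genes, the calls ranged from 0 to 667 for stiffness at 2 days, 0 to 4676 at 4 days (36 as reported), 0 to 2968 in the average (62), 347 to 7941 with time on the soft matrix (3985), 0 to 7826 on the stiff matrix (4024) and 0 to 3139 for the change of effect, and the causes were not tested.

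The labels do not say whether the replicate numbers pair the samples. The deviations of same-numbered libraries correlated at -0.0358 between matrices at 2 days and -0.49 at 4 days. Such correlations cannot decide pairing, and at 4 days the length trends of the replicate differences ran in opposite directions. With a replicate block, 2 genes were called with time on the soft matrix, as LTBP2 was lost (-0.75, edgeR adjusted p = 0.057), and 3 on the stiff matrix. With pairs crossed at 4 days, chosen after seeing the data, 3 and 3 were called. limma on log2(FPKM + 1) gave -0.36 for LTBP2 on the soft matrix (adjusted p = 0.0603).

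Signs turned only among values that were not called in the reported fit. Without scaling factors, stiffness at 2 days was -0.0503 for FBN1, -0.00278 for LTBP1 and -0.0285 for LTBP2, and FBN2 with time on the stiff matrix was -0.0931. With length offsets, FBN1 was -0.0824 and LTBP2 -0.0462 at 2 days, FBLN1 0.0286 in the average, FBN1 0.0141 with time on the soft matrix and the change of effect of FBN2 0.0882. The average for FBLN1 was 0.0192, 0.0018 and 0.0192 in the limma fits with a pseudocount of 1, of 0.1 and of 1 with no filter. FBN2 with time on the stiff matrix was -0.00134 with RLE factors, -0.014 with no filter, -0.00722 with at least 10 counts in every library, -0.00327 in DESeq2, -0.00284 with a replicate block, -0.0514, -0.0684 and -0.0514 in the limma fits and -0.052 with crossed pairs. Leaving out each library, the change of effect ranged from -0.22 to 0.0441 for EFEMP1, -0.127 to 0.361 for EFEMP2, -0.185 to 0.42 for FBLN5, -0.604 to 0.304 for FBN2 and -1.1 to 0.109 for LTBP1. Stiffness at 2 days ranged from -0.19 to 0.408 for FBLN5, -0.036 to 0.0692 for FBN1 and -0.0923 to 0.182 for LTBP2. Stiffness at 4 days ranged from -0.346 to 0.146 for EFEMP2, -0.0409 to 0.554 for FBLN5, -0.276 to 0.626 for FBN2 and -1.04 to 0.163 for LTBP1. The average ranged from -0.11 to 0.101 for FBLN1 and -0.492 to 0.108 for LTBP1. With time, FBN1 ranged from -0.397 to 0.102 and FBN2 from -0.209 to 0.337 on the soft matrix, and FBN2 from -0.514 to 0.383 and LTBP1 from -1.02 to 0.182 on the stiff matrix. ELN and MFAP5 lay under the floor of 3 counts, and FBLN5 rested on 23 to 45 counts per library.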

Other observations

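Among 12 tested genes of elastin and microfibril breakdown, 3 were lower on the stiff than on the soft matrix at 4 days and the others were not called, against 0.247% of all genes called. MMP2, a gelatinase, had 2.33 and 2.7 FPKM on the soft and 0.444 and 0.444 FPKM on the stiff matrix (log2 fold change -2.50, SE 0.255, edgeR adjusted p = 0.0151). MMP9, the other gelatinase, had 8.87 and 7.31 against 0.835 and 1.02 FPKM (log2 fold change -3.13, SE 0.32, edgeR adjusted p = 0.0151). CTSS, an elastin-degrading cathepsin, had 3.07 and 3.21 against 1.02 and 0.623 FPKM (log2 fold change -1.93, SE 0.254, edgeR adjusted p = 0.0362). The libraries of the matrices did not overlap in any of the 3 genes. All 3 calls were lost when 4 days was fitted separately, in limma with no filter, and without replicate 1 or 2 of the soft matrix at 2 days or at 4 days, while the direction held under all 20 alternatives. CTSS was also lost without replicate 1 or 2 of the stiff matrix at 2 days, without scaling factors and with a replicate block.

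With time, TIMP3, a matrix-bound inhibitor of metalloproteinases, had 10.2 and 10.1 FPKM at 2 days and 34.6 and 36.3 FPKM at 4 days on the soft matrix. Stiff libraries had 9.18 and 9.01 and then 28.0 and 27.6 FPKM. It rose by 1.82 and 1.62 on the log2 scale (edgeR adjusted p = 0.00104 and 0.000846). These calls were lost only in the fit of the stiff libraries alone, for the stiff matrix. CTSV, a cathepsin, rose by 0.55 and 0.82, CTSS rose by 0.82 on the soft matrix, and MMP14 and MMP2 fell on the stiff matrix by 0.43 and 1.57. The soft call of CTSV held under only 6 of 20 alternatives and that of CTSS under 11 of 20. The stiff call of MMP14 held under 12 of 20.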
